A study of Mus musculus with 12 samples.

Results

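The 10 genes described here encode heat shock chaperones, proteins that bind unfolded or partly folded polypeptides in the cytosol and in mitochondria. They were taken by symbol from the count files (Hspa8, Hspa1a, Hspa1b, Hsp90aa1, Hsp90ab1, Hsph1, Dnajb1, Dnaja1, Hspd1 and Hspe1), and all 10 were found among the 54532 genes listed there. The set was chosen by 1 measured value, the higher level of Hspa8 in LPS-treated cells of succinate mice than in LPS-treated cells of control mice. That comparison is therefore given as a description with no test for all 10 genes. HSP70 proteins (Hspa8, Hspa1a, Hspa1b) hold and release substrates in a cycle driven by ATP, J-domain proteins (Dnajb1, Dnaja1) deliver the substrates and start ATP hydrolysis, and HSP110 proteins (Hsph1) exchange the nucleotide. HSP90 proteins (Hsp90aa1, Hsp90ab1) act later on kinases, receptors and other clients, and Hspd1 with its lid Hspe1 forms the folding chamber of the mitochondrial matrix. Hspa8 and Hsp90ab1 are the constitutive cytosolic forms, whereas Hspa1a, Hspa1b, Hsp90aa1, Hsph1 and Dnajb1 are classical targets of heat shock factor 1 (HSF1), and in myeloid cells HSP70 and HSP90 also serve the kinases of Toll-like receptor signalling.

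The cells were mouse bone marrow monocytes sorted as CD11b-positive and Ly6C-high. The mice, whose strain, age and sex were not stated in the sources used here, were given succinate at 300 mM over 7 days or were left as controls, and the sorted cells were then kept without stimulus or with lipopolysaccharide (LPS) for 4 h. Crossing both treatments gave 4 groups with 3 libraries of total RNA apiece. The labels do not tie libraries to individual mice, so the p-values here reflect spread among samples that may be technical replicates. Because RNA was measured in bulk, a larger share of a cell type and more RNA per cell cannot be told apart.

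The libraries held 15975882 to 18306747 counts each (median 16980357), of which the 10 chaperones took 0.24% to 0.397%. Of the 10 marker genes of Ly6C-high monocytes, all were detected in every library, with summed levels of 5960 to 10700 CPM (counts scaled to library size). Granule and other neutrophil markers (12 of 12 detected) summed to 8660 to 15300 CPM without LPS and 15600 to 20700 CPM with LPS. Among them Ly6g stood lowest, at 2.06 to 8.33 CPM, and Ngp highest, at 2440 to 6300 CPM. B cell markers summed to at most 30.7 CPM. Libraries also stood apart by 5 genes (S100a4, Rpl24 and 3 pseudogene or predicted entries), both inside groups and unevenly between them. Averaged over these genes, log2 CPM stood at 3.19 to 4.03 in 5 libraries (replicates 2 and 3 of each group without LPS, and control LPS replicate 3). It stood at 0.82 to 1.46 in 7, among them all 3 of succinate mice with LPS. Library class is therefore partly confounded with LPS, and with succinate among the LPS libraries. Values with this library class as a covariate are given beside the results for Hspa8 and the called chaperones.

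Levels were compared between genes per kilobase of exon (RPKM, using the union of annotated exons). Over the 12 libraries Hsp90ab1 was the most abundant at 442 ± 55.7 RPKM (SD, n = 12), followed by Hspa8 at 266 ± 62.5 RPKM and Hsp90aa1 at 115 ± 19.3 RPKM. Hspd1 came next at 33.7 ± 2.92 RPKM. These 4 genes kept this order without overlap, since the lowest library of each lay above the highest library of the next: 359 RPKM for Hsp90ab1 against 350 for Hspa8, and 160 for Hspa8 against 140 for Hsp90aa1. Dnajb1 (18.5 ± 1.95 RPKM), Hspe1 (18.5 ± 2.95 RPKM) and Dnaja1 (13.1 ± 1.75 RPKM) overlapped with their neighbours. The lowest levels were those of Hspa1b (4.07 ± 1.37 RPKM), Hsph1 (3.04 ± 0.782 RPKM) and Hspa1a (2.4 ± 0.879 RPKM), which also overlapped. For comparison, the endoplasmic reticulum forms Hspa5 and Hsp90b1 stood at 133 ± 30.9 and 62.2 ± 7.27 RPKM, and the mitochondrial HSP70 Hspa9 at 71.0 ± 9.53 RPKM.

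Some of these genes share sequence with other genes, and how reads of shared sequence were assigned is not known here. In GENCODE M21 (GRCm38), 56.5% of the 100-base stretches of Hspa1a and 49.9% of those of Hspa1b also occur in another gene, mostly in each other, so the counts of this pair are uncertain individually. The share was 38% for Hsp90aa1, 28.5% for Hspa8, 23.9% for Hspd1, 16.6% for Dnaja1 and 11% for Hspe1, chiefly with pseudogenes. It was 0 for Hsp90ab1, Hsph1 and Dnajb1.

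Hspa8 (chromosome 9, 40800984 to 40810087, plus strand) encodes HSC70, the constitutive HSP70 that also uncoats clathrin vesicles and carries proteins to chaperone-mediated autophagy. In cells without LPS it stood at 1011, 1191 and 1135 CPM in control mice and at 1423, 1414 and 1504 CPM in succinate mice. With LPS it stood at 687, 781 and 916 CPM in control mice and at 1383, 1290 and 988 CPM in succinate mice. The 3 control LPS libraries were the lowest of all 12, and the ranges of succinate and control mice did not overlap either with or without LPS.

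With LPS, the comparison that chose the gene, Hspa8 was 1.54-fold higher in succinate mice (log2 fold change 0.62 ± 0.14, standard error). Its mean was 1220 ± 206 CPM in succinate mice and 795 ± 115 CPM in control mice (SD, n = 3 each). With library class as a covariate the log2 fold change was 0.69, and over all alternatives it lay between 0.52 and 0.75. Since this value chose the gene, neither its distance from 0 nor its steadiness is a test, and its size may be overstated. In these 6 libraries other measures also moved: mitochondrially encoded transcripts were 1.22% to 1.26% of counts in succinate mice and 0.984% to 1.07% in control mice, and Ly6C-high monocyte markers summed to 5960 to 8340 CPM against 8430 to 9340 CPM. B cell markers (7 of 7 detected, none at 0) summed to 22.9 to 30.7 CPM against 12.5 to 19.9 CPM, and dendritic cell markers (7 of 7, none at 0) to 40.6 to 51.3 CPM against 51.5 to 59.7 CPM. Stem and progenitor markers (6 of 6 detected) overlapped at 1360 to 1900 CPM against 883 to 1510 CPM, with Gata1 at 0 in at least 1 library. T and NK cell markers summed to 31.6 to 42.2 CPM against 18 to 30.5 CPM, nearly all of it Nkg7, while Cd3e, Cd3d, Cd3g, Ncr1, Klrb1c and Gzma were at 0 in at least 1 library and never above 0.646 CPM. Their part in the Hspa8 level was not tested.

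Without LPS, in libraries that did not enter the value named in its choice, Hspa8 was 1.3-fold higher in succinate mice (1447 ± 49.9 CPM) than in control mice (1112 ± 92.2 CPM, SD, n = 3 each). The log2 fold change of 0.38 ± 0.14 (95% interval 0.08 to 0.68) had an unadjusted p of 0.0157 and did not pass after Benjamini-Hochberg adjustment over 14324 genes (adjusted p = 0.958, edgeR quasi-likelihood test, higher in 3 of 3 libraries). Over the alternatives it stayed between 0.31 and 0.42, with adjusted p-values of 0.277 to 1, and it was 0.38 with library class as a covariate. In the same libraries Ly6C-high monocyte markers summed to 6970 to 9960 CPM in succinate mice and 10200 to 10700 CPM in control mice, and B cell markers to 19.5 to 26.3 CPM and 9.6 to 17.7 CPM, and their part in the Hspa8 level was not tested.

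**Figure D1:**
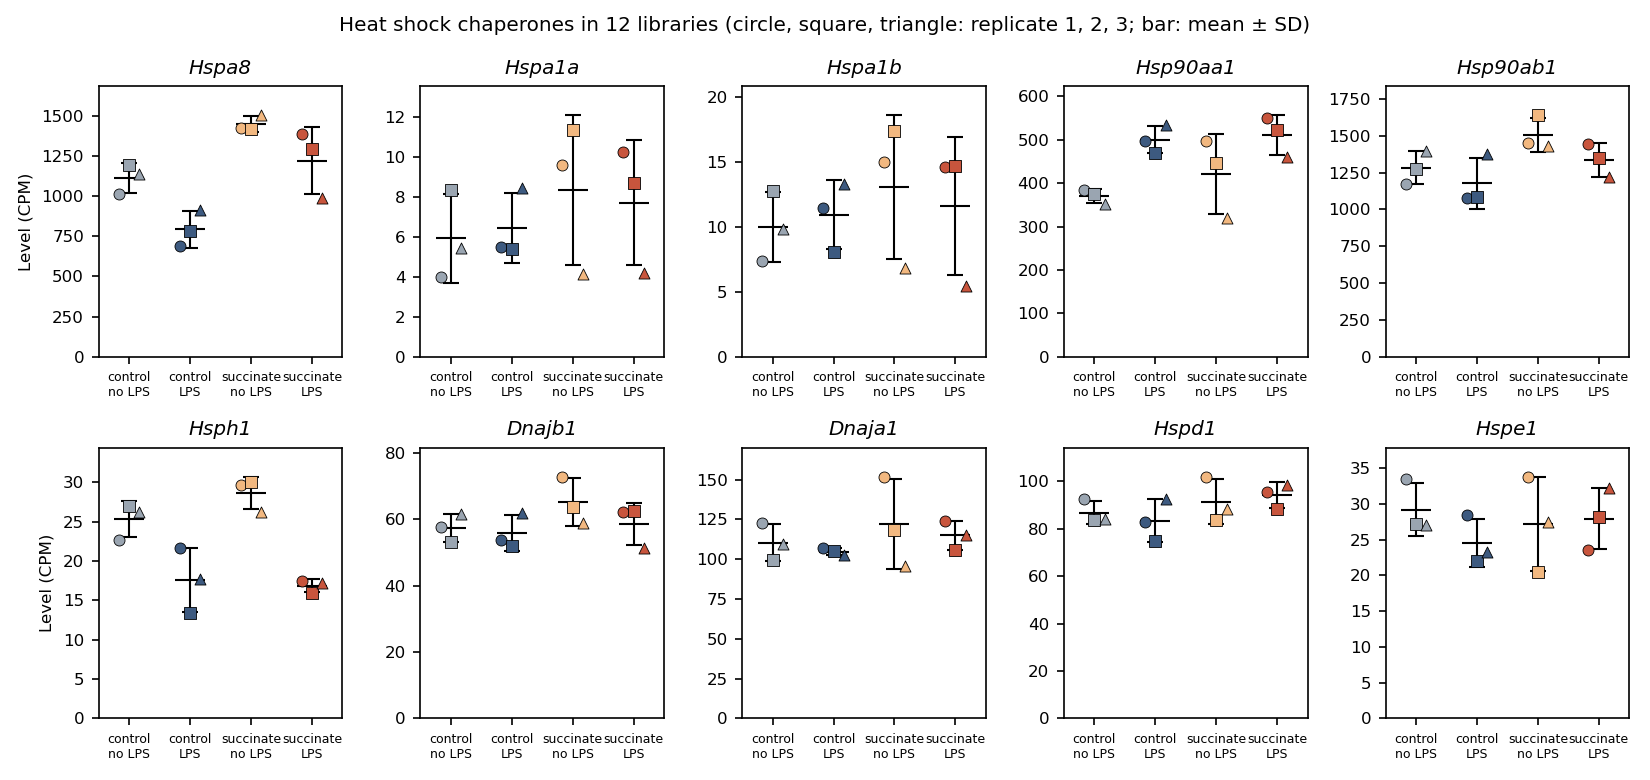
Level of each chaperone in CPM (vertical axis, from 0) in the 12 libraries, by group (horizontal axis), with 1 symbol per replicate number and bars for the mean ± SD of 3 libraries. Hspa8 shows separate ranges of control and succinate mice without LPS (beside 7.92% of all genes) and with LPS (beside 17.1%). The comparison with LPS chose the gene, so that separation is no independent observation. Hsph1 lies lower in both LPS groups, and Hspa1a and Hspa1b share the same low libraries.

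For the other HSP70 genes, Hspa1a (chromosome 17, 34969190 to 34972156) and Hspa1b (chromosome 17, 34956436 to 34959238), both on the minus strand with starts 12918 bases apart, the levels were low and the spread was wide. These are the stress-inducible HSP70 genes. Hspa1a was found at 3.99, 8.35 and 5.43 CPM in control mice without LPS and at 9.58, 11.3 and 4.15 CPM in succinate mice without LPS. With LPS it was found at 5.49, 5.39 and 8.46 CPM in control mice and at 10.3, 8.68 and 4.2 CPM in succinate mice. The groups overlapped in each comparison, and within both succinate groups the third replicate was the lowest by a wide margin.

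Hspa1b followed the same libraries. It stood at 7.35, 12.7 and 9.86 CPM in control mice without LPS, at 15, 17.4 and 6.83 CPM in succinate mice without LPS, at 11.5, 8.05 and 13.3 CPM in control mice with LPS, and at 14.6, 14.7 and 5.44 CPM in succinate mice with LPS. With LPS in control mice the log2 fold changes were 0.12 ± 0.39 for Hspa1a and 0.13 ± 0.38 for Hspa1b. Their 95% intervals ran from -0.72 to 0.96 and from -0.67 to 0.94, so changes of the size seen for other members could not be resolved. Summing the counts of both genes gave 0.13 ± 0.37 in control mice and -0.15 ± 0.36 in succinate mice, and neither passed (edgeR adjusted p = 0.834 and 0.797).

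The stretches before the start sites of both genes are shown because the genes share nearly the same sequence there and moved together across libraries. They are the 250 bases upstream of each RefSeq start (GRCm38.p6, minus strand, written 5′ to 3′), at chr17:34972157-34972406 for Hspa1a and chr17:34959239-34959488 for Hspa1b. Capitals mark a match to 2 facing units of the heat shock element, the motif bound by HSF1, searched on both strands as GAANNTTC or TTCNNGAA (N is any base). Of 32817 RefSeq promoters of this length, 12.8% hold such a match.
Hspa1a: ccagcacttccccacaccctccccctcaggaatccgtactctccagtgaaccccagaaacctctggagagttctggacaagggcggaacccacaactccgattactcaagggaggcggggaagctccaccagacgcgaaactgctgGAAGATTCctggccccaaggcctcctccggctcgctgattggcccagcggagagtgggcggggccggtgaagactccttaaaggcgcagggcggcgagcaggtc
Hspa1b: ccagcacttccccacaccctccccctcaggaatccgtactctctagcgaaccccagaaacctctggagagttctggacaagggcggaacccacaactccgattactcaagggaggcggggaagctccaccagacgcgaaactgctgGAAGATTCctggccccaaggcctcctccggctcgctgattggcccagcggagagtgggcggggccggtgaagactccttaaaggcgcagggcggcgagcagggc
The 2 stretches were 98.8% identical, with 3 differing bases, and each has the match beginning 104 bases before the start. Neither holds 3 consecutive units (GAA, TTC and GAA, or TTC, GAA and TTC, each separated by any 2 bases), a stricter pattern found in 0.466% of all promoters. RefSeq promoters were matched for 7 of the 10 genes, leaving Hspa8, Hsp90aa1 and Hsp90ab1.

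Of the HSP90 pair, Hsp90aa1 (chromosome 12, 110690605 to 110702728, minus strand), the inducible form, rose with LPS in control mice. It stood at 384, 376 and 352 CPM without LPS and at 497, 470 and 533 CPM with LPS, with no overlap. The log2 fold change was 0.43 ± 0.14, a 1.35-fold rise (edgeR adjusted p = 0.0299, higher in 3 of 3 libraries). In succinate mice the values were 498, 446 and 320 CPM without LPS and 549, 524 and 461 CPM with LPS, and the ranges overlapped. There the log2 fold change of 0.28 ± 0.14 (95% interval -0.02 to 0.58) did not pass (edgeR adjusted p = 0.153). Without replicate 1 of succinate mice without LPS, the highest library of its group, it was 0.42 and passed (adjusted p = 0.0391).

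The call in control mice was lost without control replicate 1 (0.46, edgeR adjusted p = 0.0542), replicate 2 (0.47, adjusted p = 0.0625) or replicate 3 (0.42, adjusted p = 0.0882) without LPS, without replicate 3 with LPS (0.41, adjusted p = 0.0702), and with library size in place of trimmed-mean scaling (0.35, adjusted p = 0.0713). With library class as a covariate it was kept (0.40, adjusted p = 0.0425).

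Hsp90ab1 (chromosome 17, 45567775 to 45573271, minus strand), the constitutive HSP90, passed in no tested comparison. It stood at 1176, 1274 and 1398 CPM in control mice and at 1450, 1641 and 1432 CPM in succinate mice without LPS, ranges that did not overlap (log2 fold change 0.23 ± 0.13, edgeR adjusted p = 0.958). With LPS it stood at 1078, 1082 and 1379 CPM in control mice and at 1444, 1347 and 1218 CPM in succinate mice. The change with LPS was -0.12 ± 0.13 in control mice and -0.17 ± 0.13 in succinate mice, both within overlapping ranges.

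Within a library, the ratio of Hsp90aa1 to Hsp90ab1, each per exon length, separated the LPS libraries from the others. It was 0.249, 0.225 and 0.192 in control mice without LPS and 0.352, 0.332 and 0.295 with LPS. In succinate mice it was 0.262, 0.207 and 0.171 without LPS and 0.290, 0.297 and 0.289 with LPS. All 6 LPS libraries lay above all 6 libraries without LPS, and among the LPS libraries 1 value of succinate mice lay inside the range of control mice and the other two just below it. The ratio needs no scaling between libraries, and it shows unequal change of the HSP90 forms without saying which of them moved. In each group that held both library classes, it was lower in the class of replicates 2 and 3 without LPS and control LPS replicate 3. In the other class it was 0.249 and 0.262 without LPS and 0.289 to 0.352 with LPS. The part of library class was not tested, and the share of other gene pairs that separate in this way was not examined.

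**Figure D2:**
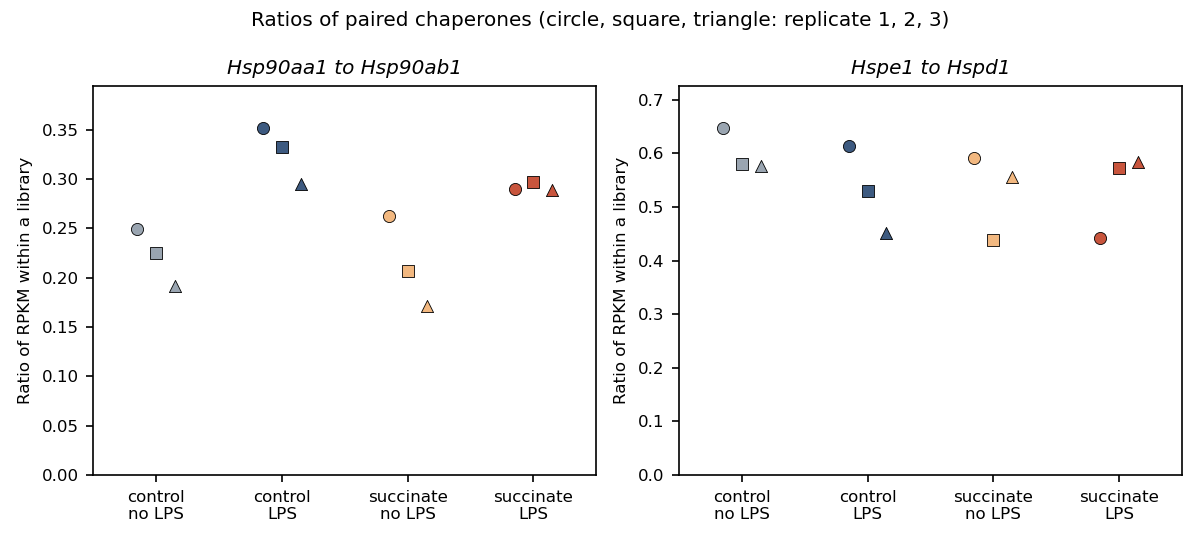
Ratio of the per-length levels (RPKM) of Hsp90aa1 to Hsp90ab1 and of Hspe1 to Hspd1 within each of the 12 libraries (vertical axes, from 0), by group (horizontal axes), with 1 symbol per replicate number. The HSP90 ratio is at least 0.289 in the 6 LPS libraries and at most 0.262 in the 6 others, while the chaperonin ratio overlaps in all groups.

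Hsph1 (chromosome 5, 149614287 to 149636376, minus strand), the inducible HSP110 that recharges HSP70, fell with LPS in both kinds of mice. In succinate mice it stood at 29.7, 30 and 26.2 CPM without LPS and at 17.4, 16 and 17.2 CPM with LPS. In control mice it stood at 22.7, 27.0 and 26.1 CPM without LPS and at 21.6, 13.4 and 17.7 CPM with LPS. All 6 LPS libraries were below all 6 libraries without LPS. The log2 fold change was -0.76 ± 0.15 in succinate mice (0.589-fold, edgeR adjusted p = 0.00154, lower in 3 of 3 libraries) and -0.52 ± 0.16 in control mice (0.696-fold, edgeR adjusted p = 0.019, lower in 3 of 3 libraries). The difference between these changes was -0.24 ± 0.22 (95% interval -0.71 to 0.23), given as a description.

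The call in succinate mice held under all 22 alternatives run for that comparison (log2 fold changes -0.82 to -0.72, adjusted p 9.6e-05 to 0.0109), including library class as a covariate (-0.73). The call in control mice was lost without replicate 2 (-0.45, edgeR adjusted p = 0.0901) or replicate 3 (-0.47, adjusted p = 0.0802) of the libraries without LPS and without replicate 2 (-0.34, adjusted p = 0.125) or replicate 3 (-0.50, adjusted p = 0.0551) of those with LPS. It was kept with library class as a covariate (-0.50, adjusted p = 0.0293). Marker sums also separated the libraries with and without LPS. Besides the neutrophil markers given above, dendritic cell markers summed to 23.7 to 29.6 CPM without and 51.5 to 59.7 CPM with LPS in control mice, and to 25.9 to 33.4 CPM without and 40.6 to 51.3 CPM with LPS in succinate mice. In control mice the sum of Ly6C-high monocyte markers was 10200 to 10700 CPM without and 8430 to 9340 CPM with LPS. In succinate mice stem and progenitor markers summed to 725 to 1040 CPM without and 1360 to 1900 CPM with LPS, T and NK cell markers to 18.5 to 23.8 CPM and 31.6 to 42.2 CPM, and granulocyte markers other than those of neutrophils (8 of 8 detected, mast cell Cpa3 at 0 in at least 1 library) to 19.8 to 23.2 CPM and 26.6 to 45.2 CPM. Their part in the Hsph1 and Hsp90aa1 changes was not tested.

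The J-domain proteins were steadier. Dnajb1 (chromosome 8, 83608193 to 83612653, plus strand), the main inducible partner of HSP70, stood at 57.7, 53.0 and 61.6 CPM in control mice without LPS and at 53.7, 51.9 and 61.9 CPM with LPS. In succinate mice it stood at 72.9, 63.9 and 58.8 CPM without LPS and at 62.2, 62.4 and 51.3 CPM with LPS. Its log2 fold change with LPS was -0.04 ± 0.12 in control mice (95% interval -0.30 to 0.22) and -0.15 ± 0.12 in succinate mice (-0.41 to 0.11), intervals that do not reach the Hsph1 estimates. Dnaja1 (chromosome 4, 40722150 to 40737149, plus strand), a constitutive J-domain partner of HSP70, ranged from 95.9 to 152 CPM, and both of these extremes were in the group of succinate mice without LPS. With LPS it changed by -0.08 ± 0.14 in both control and succinate mice, and neither estimate passed (edgeR adjusted p = 0.745 and 0.706).

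The mitochondrial chaperonin subunit Hspd1 and its lid Hspe1 are neighbours on chromosome 1 that are read in opposite directions from starts 111 bases apart (Hspd1 at 55077835 to 55088243 on the minus strand, Hspe1 at 55088132 to 55091307 on the plus strand). A stretch near these starts is shown because it holds 3-unit heat shock element matches for this gene pair. It lies 95 to 66 bases before the RefSeq start of Hspe1 (GRCm38.p6, chr1:55088053-55088082, plus strand) and inside annotated exon sequence in GENCODE, and capitals mark 2 overlapping matches.
Hspe1: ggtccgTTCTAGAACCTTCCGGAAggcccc
The same bases lie on the opposite strand before 1 of the RefSeq starts of Hspd1. Such a match describes letters in the window and nothing about binding in these cells.

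Hspd1 stood at 92.5, 83.9 and 84.2 CPM in control mice and at 102, 83.6 and 88.5 CPM in succinate mice without LPS, and at 83.1, 74.7 and 92.8 CPM and at 95.6, 88.2 and 98.7 CPM with LPS. Its 4 estimates lay between -0.06 and 0.17 on the log2 scale, each with a standard error of 0.11. Hspe1 stood at 33.4, 27.2 and 27.1 CPM in control mice and at 33.7, 20.5 and 27.5 CPM in succinate mice without LPS. With LPS it stood at 28.4, 22.1 and 23.3 CPM in control mice and at 23.6, 28.1 and 32.2 CPM in succinate mice. The groups overlapped in each comparison for both genes, and no tested estimate passed. The ratio of Hspe1 to Hspd1 per exon length ranged from 0.439 to 0.648 over the 12 libraries.

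Counted together, 2 of the 9 chaperones tested with LPS in control mice passed, Hsp90aa1 upward and Hsph1 downward. Over all 14324 genes 30.1% were called in this comparison, so the members' share was near the background. Hspa8 is left out of that count because the control LPS libraries entered its choice: it was at -0.48 ± 0.14 with LPS in control mice and at -0.25 ± 0.14 in succinate mice (95% interval -0.54 to 0.05), in both cases with the LPS libraries below the others without overlap. With library class as a covariate these values were -0.43 and -0.12, and without replicate 3 of succinate mice with LPS the latter was also -0.12. Of the 9 tested chaperones, ranges did not overlap for Hsp90aa1 and Hsph1 in control mice (beside 45.5% of all genes). In succinate mice they did not overlap for Hsph1 (beside 41.4%). In succinate mice 1 of 9 passed (Hsph1, downward), beside 30.2% of all genes. The median change with LPS over the 10 chaperones was -0.07 in control mice and -0.13 in succinate mice, against -0.004 and -0.017 over all genes.

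Between succinate and control mice without LPS, 0 of the 10 chaperones passed with edgeR, DESeq2 or limma-voom, and 0% of all genes were called with edgeR. At an unadjusted p below 0.05 edgeR had 1 of the 10 (Hspa8) and 3.73% of all genes. The estimates were above 0 for 9 of the 10 chaperones and for 51.3% of all genes, with medians of 0.18 and 0.006, and Hspe1 was the exception at -0.10 ± 0.18. Without replicate 1 of succinate mice without LPS 7 of 10 were above 0, with a median of 0.12. Ranges did not overlap for 2 chaperones (Hspa8 and Hsp90ab1, both higher), beside 7.92% of all genes in either direction and 3.65% higher. The members share libraries and are not independent of each other.

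Between succinate and control mice with LPS the estimates were above 0 for 9 of 10 chaperones, beside 47.8% of all genes. Hspa8 is 1 of these 9, and its direction was fixed by its choice. Hsph1 was the exception among the chaperones at -0.06 ± 0.16. This comparison chose the members and was not tested for them, and 0.0628% of all genes were called in it. After Hspa8, the estimates nearest in size were 0.26 ± 0.39 for Hspa1a and 0.18 for both Hsp90ab1 (± 0.13) and Hspe1 (± 0.18). Ranges were separate for Hspa8 alone, beside 17.1% of all genes in either direction and 6.95% higher. The median of the 10, with Hspa8 included, was 0.15, against -0.014 over all genes. Scaling by library size alone moved these medians to 0.28 and 0.107, with 10 of 10 chaperones above 0. With library class as a covariate 8 were above 0, and with single libraries left out 6 (without replicate 1 of succinate mice with LPS, median 0.05) to 10.

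The difference between the LPS changes of succinate and control mice, also a description, ran from -0.31 ± 0.53 for Hspa1b to 0.29 ± 0.25 for Hspe1. For Hspa8 it was 0.24 ± 0.20 (95% interval -0.18 to 0.66), and for Hsp90aa1 -0.15 ± 0.20 (-0.58 to 0.27). All 10 intervals included 0, and 0% of all genes were called.

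**Figure D3:**
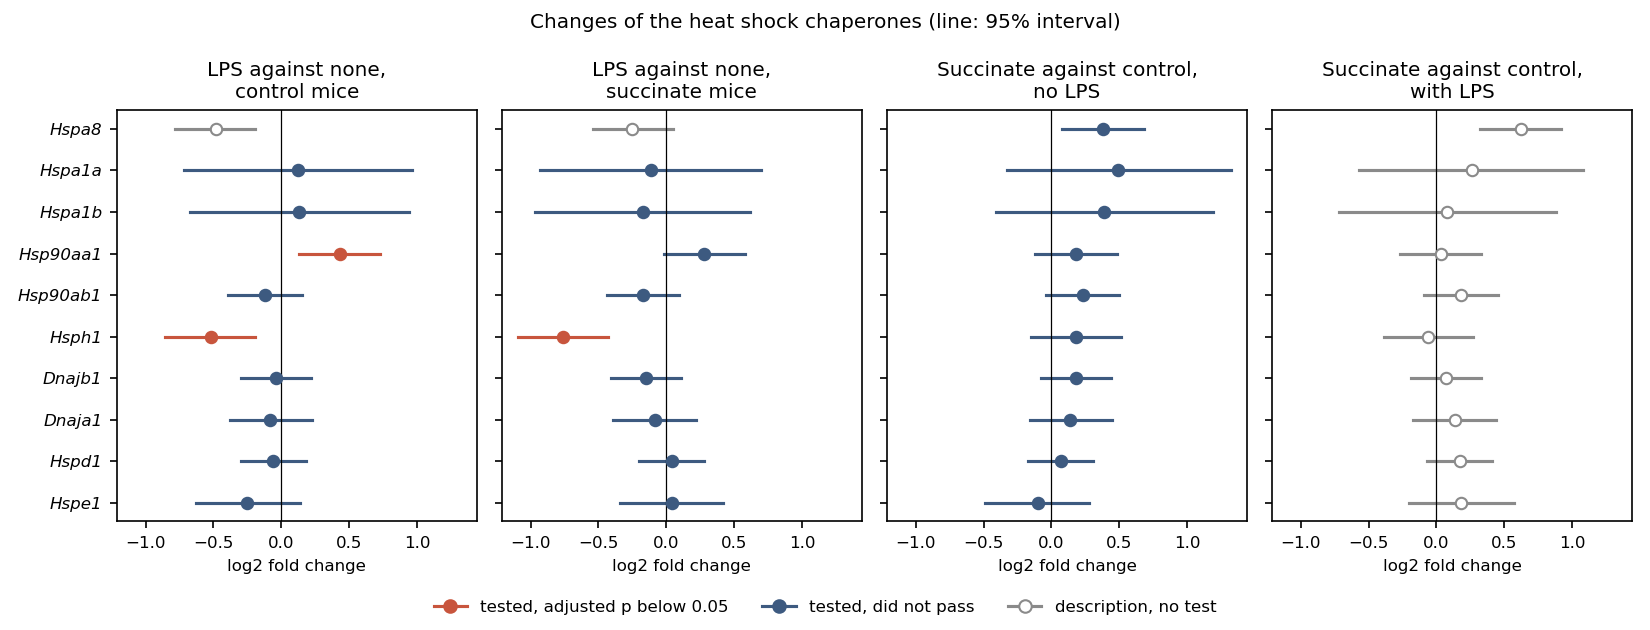
Log2 fold change (horizontal axes) of each chaperone (vertical axis) in 4 comparisons, with lines for 95% intervals, filled points for tested values and open points for values given as a description. The lines of open points are no test. Hsph1 lies below 0 with LPS in both kinds of mice, and Hsp90aa1 passes above 0 in control mice. In both comparisons of succinate with control mice 9 of 10 points lie above 0, Hspa8 with LPS by its choice. Under the alternatives the number with LPS ran from 6 (without replicate 1 of succinate mice with LPS) to 10 (among others with library size alone). The number without LPS ran from 7 to 10.

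Inside the groups some of the chaperones varied together along the libraries. With group means removed, the 45 pairs had a median Pearson correlation of 0.32, and 12 pairs were below 0. On that measure of log2 CPM over the 12 libraries it was 0.96 for Hspa1a with Hspa1b, a pair that shares reads. It was 0.77 for Hsp90aa1 with either of them, 0.75 for Hsp90aa1 with Dnaja1, 0.73 for Hspa8 with Hsp90ab1 and 0.71 for Hsp90aa1 with Dnajb1. Hspd1 and Hspe1 correlated at 0.61, while Hspe1 ran against Hsp90ab1 (-0.64) and Hspa8 (-0.55). These are descriptions over 12 libraries that share depth, scaling and preparation. Replicate 3 of succinate mice without LPS was the lowest of its group for 7 of 10 chaperones (33.3% of all genes), replicate 2 of control mice with LPS was also the lowest for 7 (30.7%), and replicate 3 of control mice with LPS was the highest for 7 (38%).

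**Figure D4:**
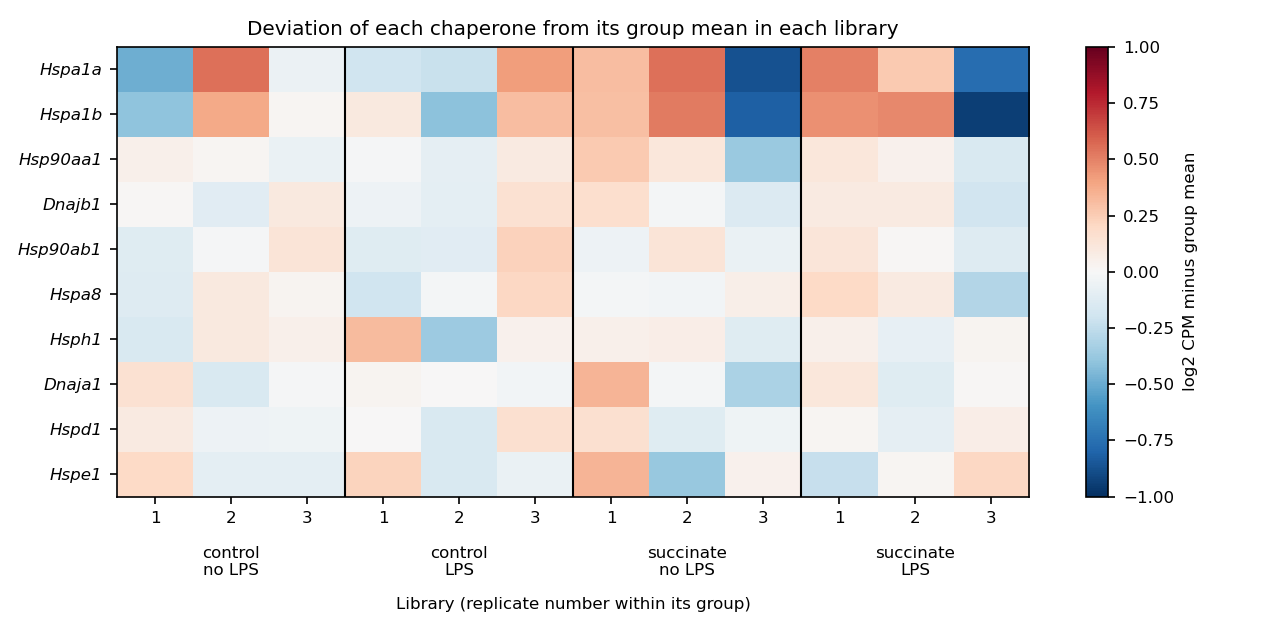
Deviation of each chaperone (rows) from the mean of its group in each library (columns, with the replicate number), as log2 CPM on a colour scale from -1 to 1. Hspa1a and Hspa1b carry the widest deviations, and the third replicates of both succinate groups are low for them together with Hsp90aa1 and Dnajb1.

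The genes most like Hspa8 were sought among 8131 genes with a mean of at least 10 CPM. The values below are the highest of 8131 correlations over 12 libraries, and values this high can arise among unrelated genes. They include the LPS libraries that entered the choice of Hspa8, and they are descriptions with no test. Over the 12 libraries the highest correlations of log2 CPM were with Narf (0.93) and with Fars2, Phtf1 and Tfdp2 (0.92 each). With group means removed they were with Stk24 (0.94), Jun, Pdcd4 and Arel1 (0.93 each) and Inpp5a (0.92). For Dnajb1 they were with Mob3c (0.89), Fbxo7 and Ddx20 (0.88 each), Nfyc (0.86) and Ythdf1 (0.85), and with group means removed with Hcar2, Szrd1 and Mob3c (0.90 each), Pwp1 and Clp1 (0.89 each). Jun, an immediate early transcription factor, itself fell with LPS by 2.04 on the log2 scale in control mice (edgeR adjusted p = 1.49e-06) and by 1.64 in succinate mice (edgeR adjusted p = 1.21e-05). The 15 immediate early genes of the list summed to 2030 to 2120 CPM in control mice with LPS and 1460 to 1810 CPM in succinate mice with LPS, and their part in the Hspa8 level was not tested.

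The surrounding chaperone network was read from 107 listed genes that are no members, of which 98 could be tested. With LPS 10 rose and 7 fell in control mice, and 10 rose and 10 fell in succinate mice, beside the 30.1% and 30.2% of all genes called in either direction. Of the 17 and 20 genes called, 11 were in both sets (all with the same sign), and medians of the list were 0.01 and 0.04. The difference between the LPS changes of succinate and control mice was tested for all 98 genes and passed for 0. A call in 1 kind of mice alone therefore shows no difference between them. These counts moved with single libraries. In control mice 9 were called without replicate 2 of the libraries without LPS and 11 without replicate 1 or 2 of those with LPS. In succinate mice 11 were called without replicate 2 of the libraries without LPS or replicate 2 of those with LPS, 13 without replicate 3 of those with LPS, and 13 with library class as a covariate.

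Among HSP90 co-chaperones (15 tested) 3 rose in control mice and 2 in succinate mice. Stip1, which links HSP70 to HSP90, rose from 86.2 ± 5.18 to 196 ± 3.16 CPM in control mice (1.18 ± 0.10, edgeR adjusted p = 3.71e-07) and from 85.9 ± 5.38 to 193 ± 15.4 CPM in succinate mice (1.17 ± 0.10, edgeR adjusted p = 4.6e-07; SD, n = 3). Chordc1, an HSP90-binding protein, rose by 0.47 ± 0.10 and 0.41 ± 0.10. Both held under every alternative run. Sugt1, an adaptor of HSP90, rose in control mice (0.37 ± 0.12, adjusted p = 0.0323), a call lost in 6 of 22 alternatives, among them those without replicate 1 or 2 of the control libraries without LPS or replicate 1 or 2 of those with LPS (adjusted p 0.0564 to 0.111). In succinate mice Sugt1 was at 0.33 ± 0.12 and did not pass (edgeR adjusted p = 0.0531).

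Among other J-domain proteins (14 tested) 2 rose and none fell in each kind of mice. Dnajb4, a relative of Dnajb1, rose from 26.5 ± 2.66 to 71.8 ± 21.0 CPM in control mice (1.44 ± 0.23, edgeR adjusted p = 0.000177) and from 27.6 ± 8.74 to 50.1 ± 6.57 CPM in succinate mice (0.86 ± 0.22, adjusted p = 0.00889). Dnajb2 rose by 0.65 ± 0.16 and 0.48 ± 0.16. In succinate mice the Dnajb2 call was lost in 8 of 22 alternatives, among them library class as a covariate (adjusted p = 0.153) and the fits without replicate 2 or 3 of succinate mice without LPS (adjusted p = 0.0582 and 0.137), replicate 1 or 2 of succinate mice with LPS (0.141 and 0.0747) or replicate 1 of control mice without LPS (0.0508). Among other HSP70 and HSP110 proteins (7 tested) Hspa13 rose by 0.66 ± 0.13 and 0.51 ± 0.13, and Hspa4l, another HSP110 protein, fell by 0.81 ± 0.11 in control mice and by 0.53 ± 0.11 in succinate mice (edgeR adjusted p = 4.75e-05 and 0.00173). Hspa13 and Hspa4l held under every alternative run. The HSP110 gene Hspa4 did not pass (-0.07 ± 0.10 and -0.18 ± 0.10).

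Among nucleotide exchange factors and HSP70 regulators (9 tested) none passed in control mice and 3 fell in succinate mice. Bag3, an HSF1 target that couples HSP70 to autophagy, stood at 45.0 ± 7.84 CPM without and 28.2 ± 1.99 CPM with LPS there (-0.67 ± 0.14, edgeR adjusted p = 0.00222, kept under every alternative run), and at 48.6 ± 7.06 and 38.1 ± 2.90 CPM in control mice (-0.35 ± 0.14, adjusted p = 0.0774). The difference between these changes was tested and did not pass (-0.32 ± 0.20, edgeR adjusted p = 1). Bag2 (-1.07 ± 0.38, at 1.26 to 2.65 CPM) and Hspbp1 (-0.45 ± 0.15) also fell in succinate mice, but lost their calls in 16 and 13 of 22 alternatives. In control mice Bag2 was at -0.67 ± 0.42 and Hspbp1 at -0.40 ± 0.15. Of 4 small heat shock proteins tested, 1 fell in succinate mice (Hspb6, -0.60 ± 0.18), and its call was lost in 7 of 22 alternatives. Hspb6 was at -0.47 ± 0.18 in control mice. The small heat shock proteins Hspb1 and Cryaa had 25 and 4 counts over the 12 libraries, and Hspb2, Hspb3 and Hspb8 had 0.

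Of 13 other mitochondrial chaperones and proteases, Hscb, the J-domain protein of iron-sulfur cluster assembly, fell in both kinds of mice (-0.78 ± 0.19 and -0.70 ± 0.18) under every alternative run. The inner membrane protease subunit Afg3l2 rose in control mice (0.91 ± 0.17, edgeR adjusted p = 0.000791) and was at 0.31 ± 0.17 in succinate mice (adjusted p = 0.197). The difference between its changes was tested and did not pass (-0.60 ± 0.24). Hspa9 fell in succinate mice (-0.34 ± 0.11, adjusted p = 0.0286), a call lost in 8 of 22 alternatives, and was at -0.14 ± 0.11 in control mice. Of 14 subunits of the cytosolic chaperonin TRiC and of prefoldin, none passed in control mice and 3 prefoldin subunits rose in succinate mice, namely Pfdn1 (0.59 ± 0.17), Pfdn4 (0.73 ± 0.23) and Vbp1 (0.37 ± 0.11), which lost their calls in 3, 5 and 5 of 22 alternatives. In control mice these 3 were at 0.29 ± 0.17, 0.57 ± 0.23 and 0.20 ± 0.11. The differences between the changes (0.30 ± 0.24, 0.16 ± 0.32 and 0.17 ± 0.16) did not pass.

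Of 16 chaperones of the endoplasmic reticulum, 1 rose and 5 fell in control mice and 1 rose and 3 fell in succinate mice. Manf, a secreted stress-induced cofactor of Hspa5, rose in both (0.38 ± 0.13 and 0.48 ± 0.13), the lectin chaperone Canx fell in both (-0.31 ± 0.10 and -0.32 ± 0.10), and the disulfide isomerase P4hb fell in control mice (-0.38 ± 0.11). P4hb was at -0.29 ± 0.11 in succinate mice and did not pass (edgeR adjusted p = 0.0557). In control mice the calls of Manf, Canx and P4hb were lost in 5, 5 and 4 of 22 alternatives, and in succinate mice that of Canx in 4 and that of Manf in 0. Of 3 tested genes listed as heat shock factors or their binding protein, 0 passed in either kind of mice with edgeR. An unadjusted p below 0.05 was found for 0 in control mice, beside 39.2% of all genes. In succinate mice it was found for 2, the factors themselves, beside 40% of all genes.

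Of 11 tested genes listed as further heat-inducible HSF1 targets, several of them also counted above, 5 rose and 1 fell in control mice. In succinate mice 4 rose and 2 fell. Over all genes 30.1% and 30.2% were called in either direction. The medians of these 11 genes were 0.14 and 0.07, against -0.004 and -0.017 over all genes. Stip1, Chordc1, Dnajb4 and the polyubiquitin gene Ubb rose in both kinds of mice and Hspa4l fell in both, while Bag3 fell in succinate mice.

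Between succinate and control mice 0 of the 98 genes passed with edgeR, either without or with LPS. At an unadjusted p below 0.05 edgeR had 1 of the 98 without LPS, beside 3.73% of all genes. Under LPS the number was 14, beside 11.7% of all genes. With LPS, Afg3l2 was at -0.60 ± 0.17 in this comparison (edgeR adjusted p = 0.15). It passed without a filter on low genes, with DESeq2, with library class as a covariate and without replicate 3 of control mice with LPS (adjusted p 0.00279 to 0.0379). Dnajb4 passed without the filter (-0.50, adjusted p = 0.0282), and Hsf2, named here after its values were seen, with DESeq2 (-0.54, adjusted p = 0.0155) and with library class as a covariate (-0.59, adjusted p = 0.0403).

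**Figure D5:**
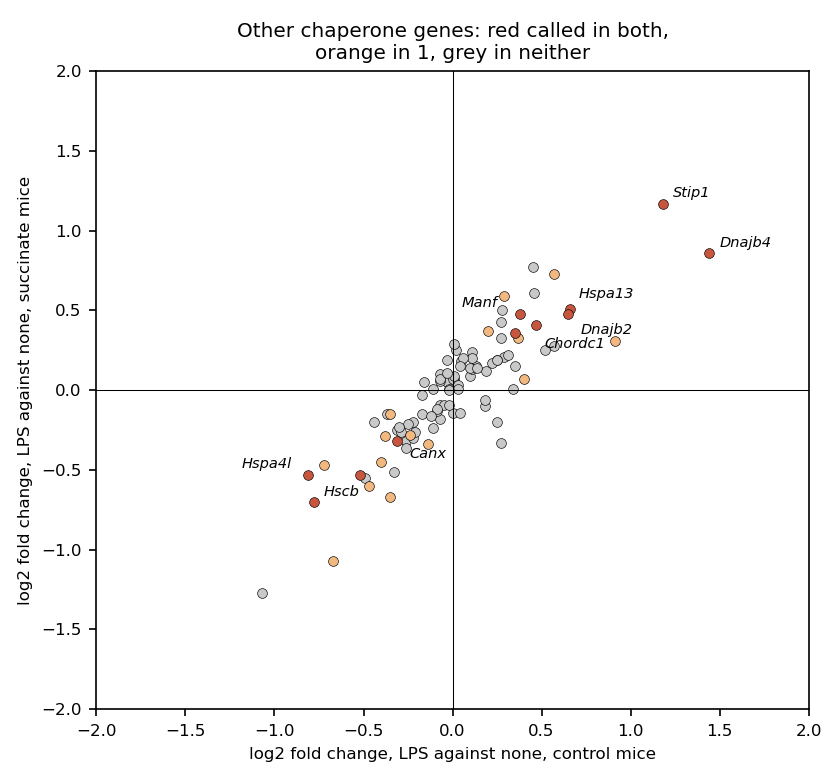
Log2 fold change with LPS in control mice (horizontal axis) and in succinate mice (vertical axis) of the 98 tested chaperone genes that are no members, coloured by the number of calls, with names for those called in both that are described in the text. Among the labelled genes Stip1 and Dnajb4 lie farthest to the upper right and Hspa4l and Hscb to the lower left. Cryab (-1.07 and -1.27, unlabelled, at under 1 CPM in each group mean) lies beyond them, and is 1 of the 72 genes called in neither.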

How the data were processed

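The deposited files give read counts per gene, not normalised, for 12 libraries of sorted mouse monocytes. Per the submitters' processing notes the authors used Trim Galore and the mm10 build. For aligner, counting tool, annotation and strand handling, nothing is given in the sources used here. Groups were taken from the sample titles. Genes were filtered with filterByExpr (14324 of 28563 genes with a count were kept, at least 99.87% of counts), scaled by TMM and tested with edgeR 4.0.16 (R 4.3.3), with 1 mean per group over all 12 libraries. Calls required an adjusted p (Benjamini-Hochberg) under 0.05. CPM values use the scaled library sizes. No 2 libraries of a group agreed within sampling noise (chi-square per degree of freedom 6.42 to 38.7). Coordinates and exon lengths come from GENCODE M21, and promoters from RefSeq. The code was tested on simulated data.

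Same-numbered libraries deviated together between succinate and control mice without LPS (r = 0.26, 0.12 and 0.20 over genes), so the numbers were taken as a possible pairing. The main fit did not use it, and a replicate block was run as an alternative. Differently numbered libraries were not compared, and replicates 2 and 3 of both groups share a library class, so the pairing is uncertain. In the other comparisons at least 1 r was below 0.1. Alternatives were other scalings and filters, DESeq2 1.42.0, limma-voom (limma 3.58.1), a replicate block, library class, the compared groups alone, summed Hspa1a and Hspa1b counts, and each library left out. The block with the compared groups alone was added after seeing the data. The members and gene lists were chosen with earlier results of these data known. The text names all members, up to 3 called genes of each list by smallest adjusted p, and the 5 genes most like Hspa8 and Dnajb1, of which 1 is not reported here.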

Additional observations from a re-analysis of the deposited data

How the results depend on the processing

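Under 23 alternatives, 1142 of 1264 tested single-gene values kept their direction and their side of the threshold, 98 lost a call, 1 gained one and 23 changed sign. Of 474 values given as descriptions, 444 kept their sign. The count of chaperones called with LPS in control mice, 2 of 9, was 1 with library size alone and ranged from 0 to 2 with single libraries left out: 0 without control replicate 2 or 3 without LPS or replicate 3 with LPS, and 1 without control replicate 1 without LPS or replicate 2 with LPS. In succinate mice it was 1 of 9, and 1 to 2 with single libraries left out. Without LPS it was 0 between succinate and control mice under every alternative. With the replicate block these counts were 2, 1 and 0, and the block changed no call of a chaperone. With single libraries left out, the other listed genes called with LPS ranged from 9 to 19 in control mice and from 11 to 22 in succinate mice (13 with library class as a covariate and 12 with only the compared groups), and those called between succinate and control mice with LPS from 0 to 1 (2 with no filter, with DESeq2 and with library class).

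Estimates near 0 changed sign. With library class as a covariate, the LPS changes in succinate mice of Hspa1a and Hspe1 became 0.09 and -0.15. With single libraries left out, the LPS changes in control mice ran from -0.10 to 0.48 for Hspa1a, -0.05 to 0.37 for Hspa1b, -0.10 to 0.04 for Dnajb1, -0.12 to 0 for Dnaja1 and -0.11 to 0.04 for Hspd1. Those in succinate mice ran from -0.44 to 0.18 for Hspa1a, -0.48 to 0.17 for Hspa1b, -0.23 to 0.11 for Dnaja1, -0.02 to 0.13 for Hspd1 and -0.13 to 0.22 for Hspe1. Succinate against control without LPS ran from -0.05 to 0.29 for Dnaja1, -0.01 to 0.13 for Hspd1 and -0.29 to 0.07 for Hspe1. In succinate against control with LPS, Hspd1 moved from 0.17 to 0.30 with library size alone, while Hspa1b, Hsp90aa1 and Hsph1 ran from -0.13 to 0.42, -0.02 to 0.16 and -0.22 to 0.11 over the alternatives. The causes were not tested.

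Over all genes, 9 were called between succinate and control mice with LPS (0 higher), but 22 higher and 317 lower with DESeq2, 34 lower with limma-voom, 5 higher and 72 lower with the replicate block, 19 higher and 171 lower with library class, 121 higher and 573 lower with no filter, 30 lower with the stricter filter, and 0 with library size alone or only the compared groups. Without LPS 34 higher and 38 lower were called with no filter, 1 with DESeq2, and 1 higher and 5 lower with the compared groups and the block.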
